A study of Mus musculus with 2 samples.

Results

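The peptidylarginine deiminase genes of the mouse ovary, Padi1, Padi2, Padi3, Padi4 and Padi6, were compared between ovulating ovaries exposed to ulipristal acetate and to oil. The members were every probe set (a group of short probes for the same transcript) whose platform annotation names exactly 1 gene with 1 of these symbols. This gave 5 probe sets for 5 genes, of 34945 such probe sets and 18193 genes on the array. Each gene therefore rests on 1 probe set, and none has a second one to compare it with. The family was taken up with the signals of these arrays in view, so the values of its members are a description and support no claim of their own.

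Both groups were wild type CD-1 mice, immature at 24 to 28 days of age. All received 5 IU of pregnant mare serum gonadotropin, which makes a cohort of follicles grow. A dose of 5 IU of human chorionic gonadotropin followed 48 h later and acts like the ovulatory surge of luteinizing hormone. Ulipristal acetate (also labelled CDB), a selective modulator of the progesterone receptor, or the oil vehicle was given 2 h after that. Ovaries were collected at 11 h, without a statement of which injection this time counts from, and the sources used here state no dose of ulipristal. Whole ovaries hold granulosa, theca, stromal, vascular and immune cells together with the oocytes, so fewer cells of a type and less message per cell cannot be told apart. There was 1 array per treatment. No spread between animals or arrays exists for any value, and no test between the treatments is given.

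Peptidylarginine deiminases are calcium-dependent enzymes that convert arginine within proteins to citrulline, which removes a positive charge. Padi1 is known from epidermis and uterine epithelium, Padi2 from many tissues including brain and muscle, and Padi3 from hair follicles, where it acts on trichohyalin. Padi4 carries a nuclear localization signal, acts on histones and is abundant in neutrophils. Padi6 is an oocyte protein of the cytoplasmic lattices, and female mice without it are infertile because their embryos arrest early. In rodent uterus and pituitary, estrogen is known to raise peptidylarginine deiminase levels.

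Padi1 was higher with ulipristal by 8.16-fold and Padi2 by 2.23-fold, while Padi6, the oocyte member, differed by 1.12-fold. Padi3 and Padi4 were too dim over the 2 arrays to count as measured. Signals are in arbitrary units with the same trimmed mean, 150.001, on both arrays, and a signal is comparable between the arrays for the same probe set, not between genes. Signals below 7.17, the 25th percentile over both arrays, were treated as equal to that floor. A gene counted as measured where the geometric mean of its signals reached 30.8, the median over the array, which left 11364 genes. Of the 5 members 3 were measured. Of these, 2 were higher by 2-fold or more and 0 lower, against 3.34% of all measured genes higher and 1.56% lower by that amount. Since the family was chosen from this contrast, nothing is read from its share. Padi1 and Padi2 read 14.7 and 27.2 with vehicle, below 30.8, and counted as measured only through their ulipristal signals. Markers of epithelium and oviduct were higher on the same array, with a median log2 ratio of 1.04 over 12 genes. Granulosa markers were close to that, with a median of 0.97 over 8 genes. The median over all measured genes was 0.09.

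**Figure D1:**
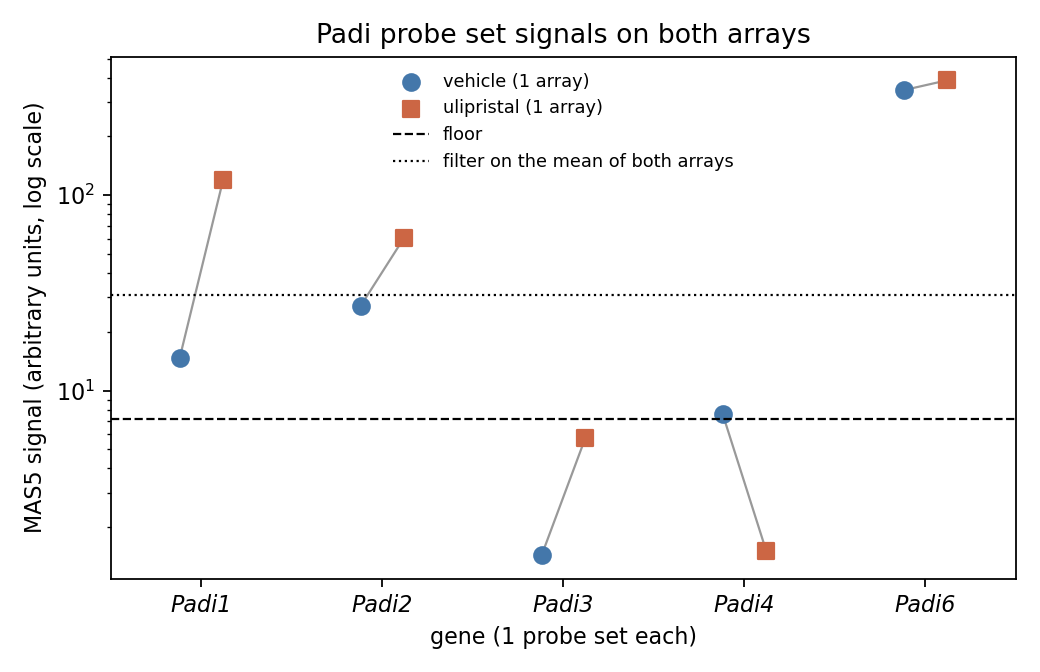
Signals of the Padi probe sets on the vehicle array (circles) and the ulipristal array (squares), in arbitrary units on a log scale, with the floor at 7.17 (dashed) and the filter at 30.8 (dotted). Padi1 went from 14.7 to 120.0 and Padi6 stayed near 345 and 388. Heights compare arrays within a gene, not genes with each other.

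The stretches of DNA before the starts of Padi1, Padi2 and Padi6 are shown because Padi1 and Padi2 were both higher and Padi6 was not. Each is the 250 bases before the annotated start, from RefSeq on build GRCm38.p6, on the gene's own strand and 5′ to 3′. All 5 members matched that table. Capitals mark matches to the GC box, written GGGCGG, to the CCAAT box and to the TATA box, written TATAAA, all searched on both strands and without overlap among the matches. The Padi1 window is chr4:140845779-140846028 on the minus strand, the Padi2 window chr4:140906110-140906359 on the plus strand and the Padi6 window chr4:140742644-140742893 on the minus strand.
Padi1: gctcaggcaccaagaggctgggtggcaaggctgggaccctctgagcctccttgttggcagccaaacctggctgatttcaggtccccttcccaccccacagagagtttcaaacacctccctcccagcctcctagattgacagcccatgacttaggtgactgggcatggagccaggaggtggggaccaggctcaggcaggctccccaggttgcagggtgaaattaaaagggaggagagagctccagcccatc
Padi2: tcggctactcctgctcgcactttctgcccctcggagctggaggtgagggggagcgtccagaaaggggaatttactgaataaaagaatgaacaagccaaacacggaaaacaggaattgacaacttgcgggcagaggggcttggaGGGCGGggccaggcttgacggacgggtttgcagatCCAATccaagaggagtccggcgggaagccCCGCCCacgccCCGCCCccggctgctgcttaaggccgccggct
Padi6: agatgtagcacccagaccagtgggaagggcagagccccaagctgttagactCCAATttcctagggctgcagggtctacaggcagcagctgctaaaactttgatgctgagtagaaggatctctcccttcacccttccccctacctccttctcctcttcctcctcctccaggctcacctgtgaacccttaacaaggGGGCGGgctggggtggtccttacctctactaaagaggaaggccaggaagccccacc

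The windows of Padi1 and Padi2 differed in composition. That of Padi1 holds 0 CG dinucleotides at a GC content of 60%, and that of Padi2 holds 17 at 61.6%. The median over the 32851 windows of all genes in the table is 6 CG dinucleotides and 52.4% GC. The Padi2 window has 3 GC boxes and 1 CCAAT box, the Padi6 window has 1 of each, and the Padi1 window has neither. A GC box is present in 32.7% of all windows and a CCAAT box in 33.8%. A TATA box, which 12.4% of windows hold, was found in none of these windows and in that of Padi4, where its first base lies 31 bases before the start.

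Motifs of steroid receptors were searched in the windows of all 5 members. These were the palindromic estrogen response element (in 0.0639% of all windows), its arm GGTCA (35.2%), the palindromic progesterone response element (0.387%) and its arm AGAACA (16.1%). The estrogen arm also lies within every match to its full element. The progesterone arm reaches beyond the letters searched for its full element, so a match to that element need not hold the arm. None of these motifs was found in any of the 5 windows. The letters CANNTG of an E-box, present in 66.2% of windows, were found in those of Padi3, Padi4 and Padi6, with 2 matches each, and not in those of Padi1 or Padi2. The letters TGANTCA of an AP-1 site, present in 6.75%, had 1 match, in the Padi4 window. These matches describe letters in short windows only.

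Padi1, the epidermal and uterine enzyme, had a signal of 14.7 with vehicle and of 120.0 with ulipristal. In rank within each array, it moved from percentile 38.0 to percentile 70.4 of all probe sets. Among the 11364 measured genes, a set it entered only through its ulipristal signal, its log2 ratio of 3.03 was the highest. Next was Pgr, the progesterone receptor gene, at 2.83. Further down came the predicted gene Gm6958 at 2.68, the aspartic protease gene Napsa at 2.68 and Cyp26a1, a retinoic acid-degrading enzyme, at 2.44.

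The vehicle signal of Padi1 was low, at about the level where ratios scatter widely. In the lowest decile of measured genes by signal, from 30.8 to 52.4, 14.2% were higher by 2-fold or more and 2.99% lower, against 3.34% and 1.56% over all measured genes. The median log2 ratio in that decile was 0.28. Among 903 other genes whose vehicle signal lay within 1.2-fold of that of Padi1, the ulipristal signal had a median of 14.6 and a 95th percentile of 39.5. The highest was 90.1, and 0 of the 903 reached the 120.0 of Padi1. This largely restates the rank of Padi1 in the contrast from which the family was chosen, and is no test. For 268 genes with at least 2 probe sets in the same low range of signal, the log2 ratios of the 2 brightest differed by a median of 0.46. The 95th percentile of that difference was 1.56 and the largest was 2.78, so probe sets for the same gene can disagree by much of the Padi1 ratio.

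**Figure D2:**
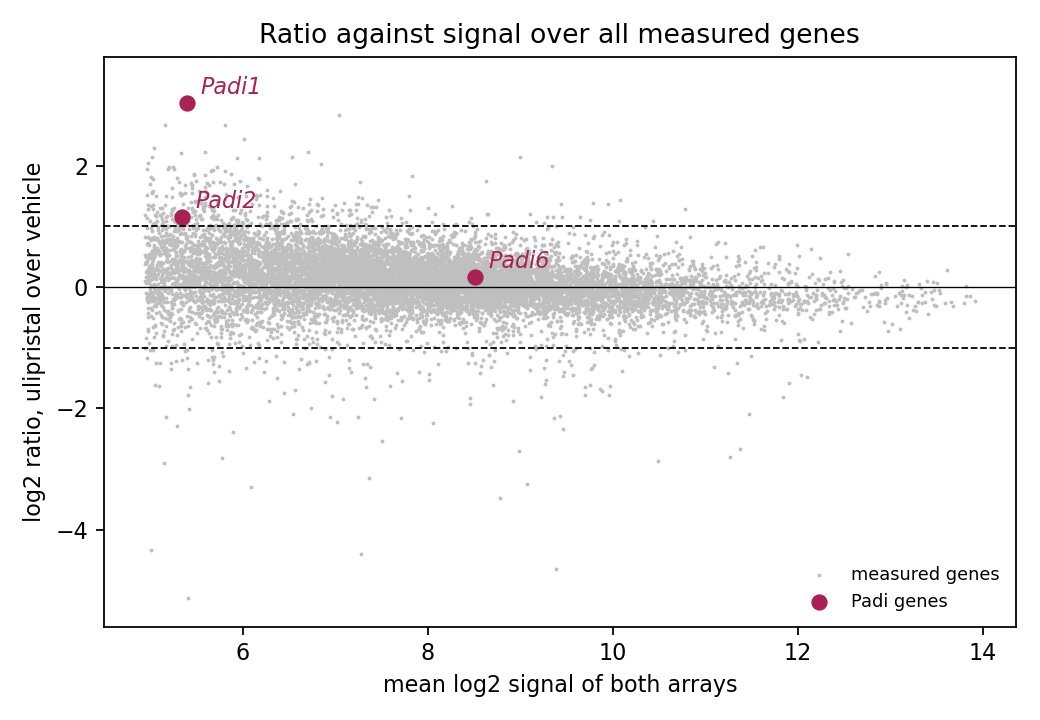
Log2 ratio of ulipristal over vehicle against the mean log2 signal for the 11364 measured genes (grey), with the 3 measured Padi genes marked and 2-fold lines dashed. Padi1 lies at the top at 3.03, Padi2 just above 2-fold at 1.16 and Padi6 at 0.17, and the spread of ratios is wider at low signal.

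Padi2, the broadly expressed member, read 27.2 with vehicle and 60.6 with ulipristal, a log2 ratio of 1.16. It ranked 230th among the measured genes. Its percentile within the array went from 48.5 to 59.8. Among 788 other genes with a vehicle signal within 1.2-fold of its own, 82 read as high as Padi2 or higher on the ulipristal array, whose 95th percentile for them was 74.3. Padi2 thus lay within the range of such genes, in the same decile of signal where 14.2% of genes were higher by 2-fold or more. With 50 added to every signal in place of the floor, its log2 ratio was 0.52, and with the floor at the 50th percentile it was 0.96, both short of 2-fold. The same settings gave 1.39 and 1.95 for Padi1.

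Padi6, the oocyte lattice protein, read 345.1 with vehicle and 387.7 with ulipristal, a log2 ratio of 0.17. Among all probe sets it stood at percentile 86.1 with vehicle and 87.3 with ulipristal. In its decile of signal, from 305 to 421, 0.88% of genes were higher by 2-fold or more and 1.41% lower. Among 1236 other genes with a vehicle signal within 1.2-fold of its own, the 5th percentile of the ulipristal signal was 237 and the 95th was 518, and Padi6 lay inside that range.

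Padi3, the hair follicle enzyme, read 1.44 with vehicle and 5.69 with ulipristal, both below the floor, and so has no fold. It was 1 of 2344 genes below the floor on both arrays. Padi4, the neutrophil and histone enzyme, read 7.57 with vehicle, just above the floor, and 1.51 with ulipristal, below it. It was at least 1.06-fold lower, a bound that says little. Without the floor the log2 ratios were 1.98 for Padi3 and -2.32 for Padi4, between signals in the range where probe sets carry no order. Among 795 other genes with a vehicle signal within 1.2-fold of that of Padi4, 143 read as low as Padi4 or lower with ulipristal.

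Genes of the subcortical maternal complex, an oocyte assembly linked to the same cytoplasmic lattices as Padi6, were all within 2-fold between the arrays. Of 6 listed genes, 5 were measured, with log2 ratios from 0.06 to 0.38 and a median of 0.14, beside the 0.17 of Padi6. Nlrp5, a core member also called Mater, read 252 and 278. Ooep, a KH-domain protein, read 482 and 530, and Tle6, a Groucho-family protein of the complex, read 240.0 and 312. Khdc3, or Filia, read 64.6 and 67.3. Zbed3 read 477 and 542 on its brightest probe set, with log2 ratios of 0.51 and 1.43 on the dimmer measured ones. Markers of the oocyte in general gave 0 genes past 2-fold in either direction of 13 measured, with a median of 0.09. Among them the meiotic kinase Mos (40.4 against 65.5) and the transcription factors Nobox (52.4 against 79.9) and Lhx8 (70.2 against 45.0) had the largest ratios. Over all measured genes the median was 0.09. By 2-fold or more, 3.34% of them were higher and 1.56% lower, the shares to set beside each list count below.

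Other enzymes that act on arginine did not reach 2-fold in either direction on their brightest probe sets. Of 14 listed genes for arginine methyltransferases, dimethylarginine hydrolases, arginases and Jmjd6, 12 were measured. Their median log2 ratio was 0.22, with a range from -0.47 to 0.77. Ddah1, which breaks down free methylated arginine, read 139 and 238 on its brightest probe set, and its other measured probe sets gave 0.29 and 0.18. Prmt2, a methyltransferase, read 299 and 472 on a first probe set and 289 and 278 on a second, so its probe sets disagreed in direction. Prmt6, another methyltransferase, read 99.9 and 72.3. With the median over each gene's probe sets, 1 member was past 2-fold, Prmt9, whose brightest probe set gave a log2 ratio of 0.03 and whose 2 dim ones gave 1.04 and 1.24.

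Genes for proteins described as citrullinated had 1 member past 2-fold on the higher side and 0 on the lower side among the 16 measured. The median log2 ratio was 0.09. The higher member was Cxcl10, a chemokine, which read 27.9 and 68.1 and fell short of 2-fold with 50 added to every signal. Pkm, the pyruvate kinase of glycolysis, read 541 and 1073, just short of 2-fold at a log2 ratio of 0.99. With quantile normalization or lowess centring 2 members were past 2-fold on the higher side. Lmna, the nuclear lamina gene, read 547 and 422. Vim, which encodes the intermediate filament vimentin, read 6253 and 5429. Of the hair follicle and epidermal substrates on the list, Krt10, a keratin, read 96.3 and 118.8 and Tchh, trichohyalin, read 31.0 and 32.6. Flg, filaggrin, was below the floor on both arrays, and Krt1, another keratin, was not measured.

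**Figure D3:**
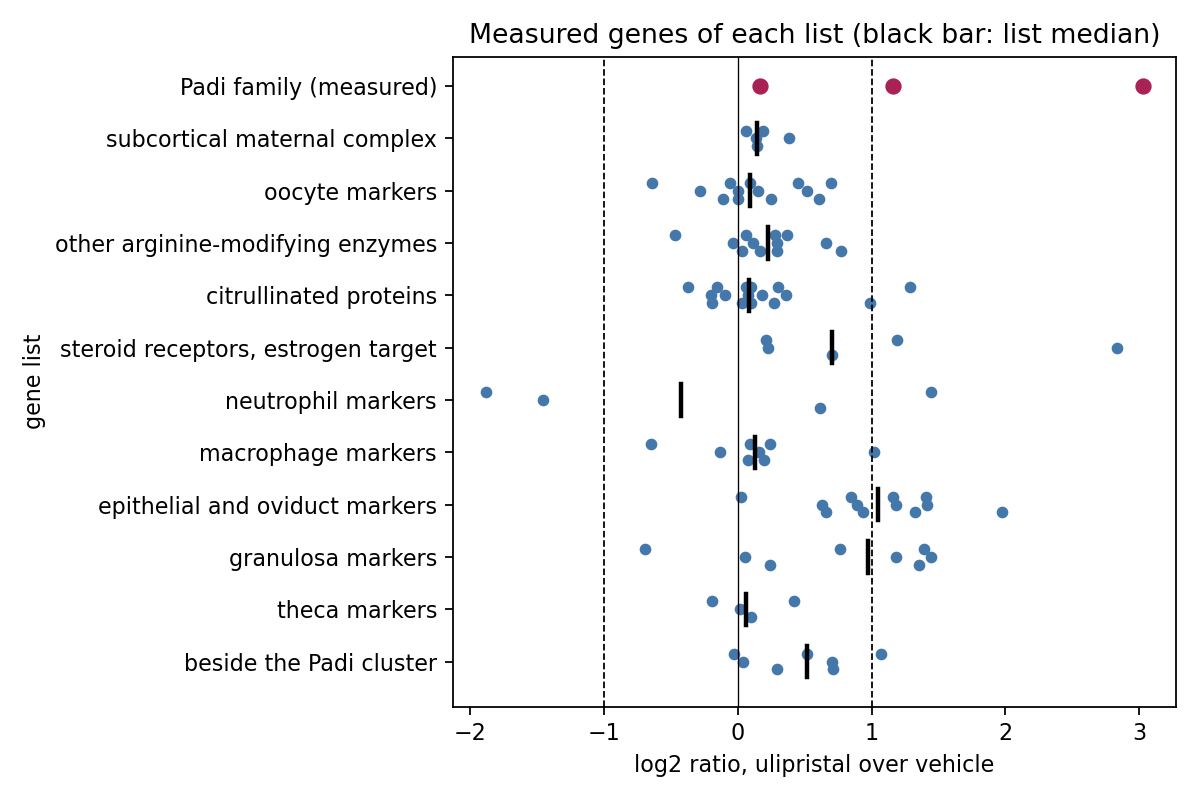
Log2 ratios of the measured genes of each list (points) with the list median (black bar) and 2-fold lines dashed; the Padi family is on top. Padi1 at 3.03 lies to the right of every listed gene, the nearest being Pgr at 2.83, and epithelial and oviduct markers have the highest list median, 1.04.

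Epithelial and oviduct markers were higher on the ulipristal array together with Padi1. All 12 measured of 13 listed had a log2 ratio above 0, with a median of 1.04 and a range from 0.02 to 1.98. Of these, 6 were higher by 2-fold or more and 0 lower, and with 50 added to every signal 1 was. Their summed signal was 4856 with vehicle and 7762 with ulipristal, mostly from Ovgp1, which read 3641 and 5642. None of the 13 was below the floor on both arrays. Foxj1, the master regulator of motile cilia, read 19.1 and 75.1, a log2 ratio of 1.98. The cilium genes Ccdc39 and Tmem212 had log2 ratios of 1.41 and 1.40. Foxj1 and Ccdc39, both among the markers higher by 2-fold or more, read below the filter with vehicle. Like Padi1 and Padi2, they counted as measured only through their ulipristal signals. The 1 listed marker that was not measured, Pax8, a transcription factor of oviduct epithelium, read 8.26 and 41.3. Padi1 exceeded the ratio of each of these markers. The part of epithelial tissue in the Padi1 and Padi2 ratios was not tested.

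Granulosa markers also had a high median of 0.97, with 4 of 8 measured genes past 2-fold, all higher, and a summed signal of 12405 with vehicle and 16675 with ulipristal. Among them Inhbb and Inhba, subunits of inhibin and activin, and Gata4, which encodes a GATA-family factor of the gonad, had log2 ratios of 1.44, 1.39 and 1.35. Inha, the alpha subunit of inhibin, read 6933 and 8212, the largest part of that sum. Of the 8 genes 1 was below 0, Amh, the anti-Müllerian hormone gene, which read 48.7 and 30.1. Theca markers had a median of 0.06 over 4 measured genes, with Cyp17a1, the androgen-producing enzyme, at 851 and 1138, Star at 5733 and 5016 and Cyp11a1 at 10451 and 11177. Each list thus had some members that were bright on both arrays. On the granulosa list, Fshr read only 51.1 and 115.8, and Amh was dimmer still. Insl3, a further listed theca gene, had no probe set naming 1 gene. Which cells these signals came from was not tested.

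Neutrophil markers, listed because Padi4 is abundant in those cells, were mostly dim. Of 13 listed genes, 11 had a probe set and 4 were measured, with 2 lower and 1 higher by 2-fold or more. Their median log2 ratio was -0.42, with 2 genes above 0 and 2 below. It was 0.61 without s and x probe sets, which can bind several transcripts and include that of S100a8, and also 0.61 with the filter at the 75th percentile. S100a8 and S100a9, calcium-binding proteins of neutrophil granulocytes, read 202 and 73.5, and 150.0 and 40.6. Ltf, lactoferrin, which estrogen also induces in mouse uterine epithelium, read 64.3 and 175. Lcn2, lipocalin 2, read 136 and 209. Without the filter, 5 of the 11 were lower and 1 higher by 2-fold or more, and with the filter at the 75th percentile 0 were lower. Elane, neutrophil elastase, was below the floor on both arrays. The summed signal of the measured markers was 553 with vehicle and 498 with ulipristal. Their part in the low Padi4 signal was not tested. Macrophage markers were all measured, with 1 of 8 past 2-fold, which was higher, a median of 0.13 and summed signals of 1504 and 1648. C1qc, a complement subunit, read 97.7 and 198 and fell short of 2-fold with each of the 3 centrings tried. Cd163, a scavenger receptor, read 68.1 and 43.4, and Cd68, a lysosomal glycoprotein, 59.3 and 70.0.

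Steroid receptor genes are given beside the family because of the known link of estrogen to these enzymes in rodents. Pgr read 49.2 and 351, a log2 ratio of 2.83, on its 1 measured probe set. Esr2, estrogen receptor beta, read 43.1 and 98.1, a log2 ratio of 1.19. Esr1, estrogen receptor alpha, read 502 and 818, a log2 ratio of 0.71, and its second measured probe set gave 0.56. Greb1, an estrogen target, read 2934 and 3431. Of the 5 measured genes on this list, 2 were higher by 2-fold or more and 0 lower, and their median log2 ratio was 0.71. With the median over each gene's probe sets, only Esr2 counted as higher.

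The Padi genes lie side by side on chromosome 4 in the order Padi6, Padi4, Padi3, Padi1, Padi2. Their neighbours were compared to see whether the difference extended along the chromosome. Of the 5 protein-coding genes with a probe set on either side, 7 were measured. Their log2 ratios had a median of 0.52 and ran from -0.03 to 1.07. Sdhb, a subunit of succinate dehydrogenase and the gene next to Padi2, read 1886 and 1853. Beyond it, Atp13a2, a lysosomal pump, read 223 and 364, Mfap2, a microfibril protein of the matrix, 397 and 833, Crocc, a component of the ciliary rootlet, 37.2 and 60.5, and Necap2, an endocytosis adaptor, 291 and 298. Mfap2 was the only neighbour past 2-fold, and its second probe set gave a log2 ratio of 0.46. On the side of Padi6, Rcc2, a protein of the mitotic centromere, read 174 and 249 and Arhgef10l, a guanine nucleotide exchange factor, 36.3 and 44.6. The genes Igsf21, Pax7 and Tas1r2, further out on that side, were not measured.

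**Figure D4:**
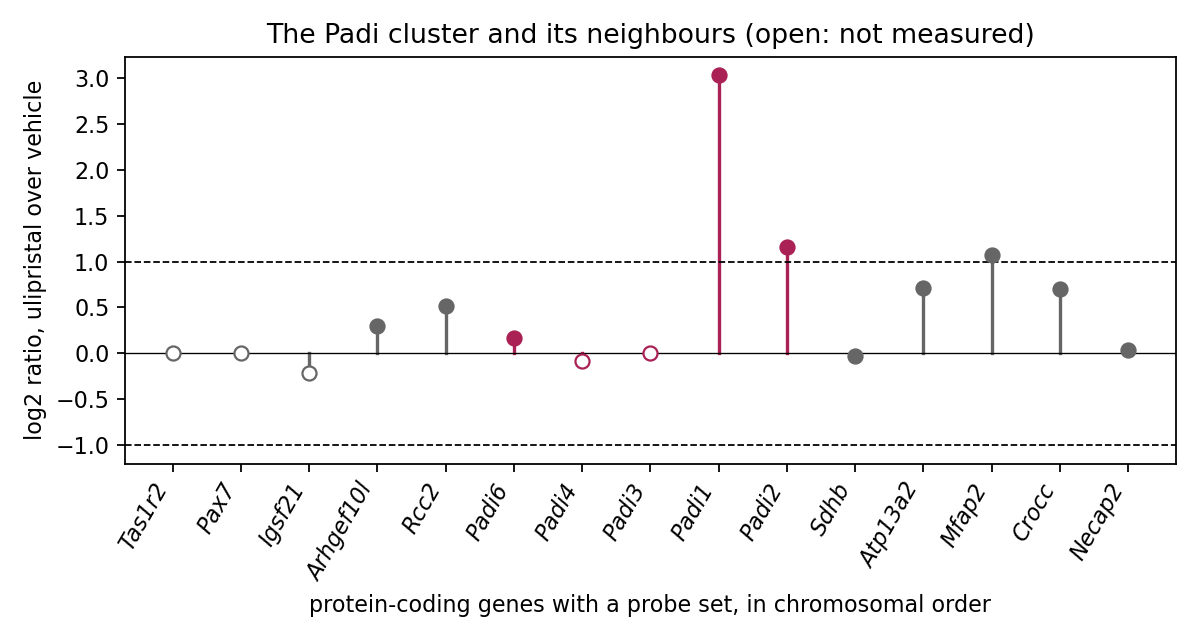
Log2 ratio of ulipristal over vehicle for the Padi genes (red) and 5 genes on either side (grey) in chromosomal order, without distances, with 2-fold lines dashed. Open points are genes that were not measured, and those at 0 were below the floor on both arrays. Padi1 at 3.03 stands between the unmeasured Padi3 and Padi2 at 1.16, and Sdhb, next to Padi2, lies at -0.03.

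The measured genes with the most similar pair of signals were named by the Euclidean distance between log2 values over the 2 arrays. Signals of different probe sets do not compare amounts of message, and 2 points hold no pattern beyond a level and a ratio. Nearest to Padi1 were Napsa (14.1 and 90.1, at a distance of 0.42), Trim5 (18.7 and 86.3, at 0.59) and the predicted gene Gm19935 (22.2 and 104, at 0.63). Nearest to Padi2 were Ngfr, a neurotrophin receptor (27.2 and 60.4, at 0.0056), the predicted gene Gm36723 and Dok3, an adaptor protein of immune receptors. Nearest to Padi6 were Eef1akmt2, Kdr and Plekha2, all within 0.013. The closest gene to Padi1 was further from it than those of Padi2 and Padi6 from theirs. This largely restates the rank of Padi1 in the contrast from which the family was chosen, and is no test.

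**Figure D5:**
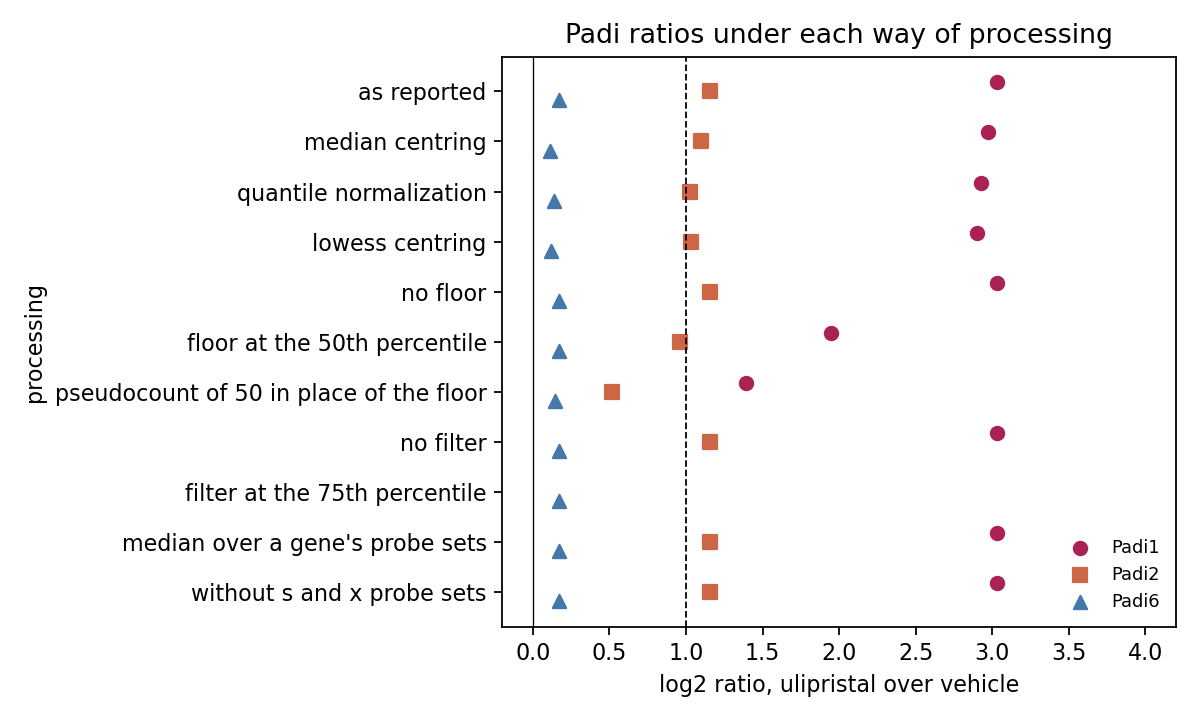
Log2 ratio of Padi1 (circles), Padi2 (squares) and Padi6 (triangles) under each way of processing, with the 2-fold line dashed. Padi1 stays above 2-fold from 1.39 to 3.03, Padi2 falls below it with the higher floor and with 50 added, and with the stricter filter only Padi6 is left.

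Across these ways of processing, the ratio of Padi1 ranged from 1.39 to 3.03 and was above 2-fold in all 11 alternatives that kept it. Removing the floor or filter, other probe set choices and other folds could not move the ratios of Padi1, Padi2 and Padi6. Each rests on 1 probe set above the floor on both arrays. The 3 centrings gave 2.90 to 2.97 for Padi1. The rank of Padi1 among the genes kept was 2nd without a filter, 11th with the floor at the 50th percentile and 9th with 50 added to every signal. Padi2 ranged from 0.52 to 1.16 and Padi6 from 0.11 to 0.17. With the filter at the 75th percentile, a signal of 154, Padi1 and Padi2 were no longer measured.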

How the data were processed

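Total RNA from whole ovaries, 100 ng per sample, was amplified, labelled with biotin and hybridised to the Mouse Genome 430 2.0 chip of Affymetrix, as the labels' protocols state. The deposited values are MAS5 signal intensities on a linear scale. MAS5 and version 1 of Affymetrix Expression Console appear in the submitters' processing notes, and the values of both arrays share the trimmed mean given above (2% off each end), so a shift common to most genes would not be visible. No build is stated for the probe annotation in the sources used here. Precision is limited by the number of arrays, 1 per group.

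The arrays hold 45101 probe sets. Besides 64 controls, 34945 name 1 gene, and 932 with several genes and 9160 with none were left out of gene values. Signals were floored and log2-transformed, and the ratio is ulipristal minus vehicle. A gene was represented by its brightest probe set and called at 2-fold. Members, lists and thresholds were chosen with earlier results of these data known. All members were named, with the 3 largest measured ratios of each of 11 lists, every measured gene of the maternal complex and beside the cluster, and the 3 nearest signal pairs. Prmt9, Vim, Krt10, Tchh, Flg, Krt1, Inha, Amh, Fshr, Greb1, Lcn2, Pax8, Ovgp1, Elane, Igsf21, Pax7, Tas1r2, Gm6958 and Cyp26a1 fall outside that rule and were chosen after their values were seen. The comparison with genes of like vehicle signal was also added after the data were seen. The lists' genes Nlrp2, Npm2, Eno1, Ly6g, Retnlg and Insl3 had no probe set naming 1 gene and are not analysed here. The steps were tested on simulated data. Alternatives were 3 centrings (median, quantile, and lowess with fraction 0.3), other floors and filters, a pseudocount of 50, other probe set choices and other folds. Python 3.11.15, numpy 2.4.6, pandas 2.3.3, scipy 1.17.1, statsmodels 0.14.6 and matplotlib 3.10.9 were used.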

Additional observations from a re-analysis of the deposited data

How the results depend on the processing

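No paired analysis was possible because each treatment has 1 sample, and leaving out a sample leaves no comparison. Padi1 kept its direction and stayed past 2-fold under every alternative that measured it, and Padi6 stayed within 2-fold under all 12. Several of these settings could not move either ratio, as given above. Padi2 fell short of the fold with the floor at the 50th percentile (0.96 on the log2 scale), with 50 added (0.52) and where 3-fold was asked (1.16). The count of members higher, 2 as reported, was 1 under those settings and 0 with the filter at the 75th percentile, where Padi1 and Padi2 gave no value. Without a floor, Padi3 read 1.98 and Padi4 -2.32. Against 3.34% of all measured genes higher and 1.56% lower, the 94 measured genes of all lists had 16 higher and 2 lower. The count higher was 5 with 50 added, 5 with the filter at the 75th percentile, 31 at 1.5-fold and 2 at 3-fold. The count lower was 5 without a filter, 0 with the filter at the 75th percentile, 1 without s and x probe sets, 5 at 1.5-fold and 1 at 3-fold. Changes with the filter or the fold follow from their construction. The cause of the others was not tested. Of 432 further values for lists and for all genes, 371 kept their side of the fold or stayed within 1.5 times. Signals near the floor limit what can be said of Padi3 and Padi4.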
